A study of Mus musculus with 22 samples.

Results

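The 10 genes described here centre on the glucocorticoid receptor in mice that received thyroid hormone (TH): the receptor gene Nr3c1, the hormone-activating enzyme Hsd11b1, and 8 genes that glucocorticoids are known to induce, namely Fkbp5, Tsc22d3, Sgk1, Zbtb16, Errfi1, Ddit4, Mt1 and Mt2. They were taken by name, with earlier results of these data known, and all 10 had a row among the 55327 gene rows of the striatum count table and among the 47628 gene rows of the white adipose tissue (WAT) count table. The 22 RNA-seq libraries came from wild-type C57BL/6J mice labelled as males of 8 weeks. Striatum gave 2 libraries of hypothyroid mice treated with propylthiouracil (PTU) for 2 weeks, 4 libraries taken 12 h after TH and 4 taken 24 h after TH. WAT gave 4 PTU libraries, 4 taken 6 h after TH and 4 taken 24 h after TH. PTU blocks hormone synthesis in the thyroid gland. The labels of the TH libraries name the hormone and the time only, and the study's methods give PTU in the food, followed by 1 intraperitoneal injection of T3 and T4, for WAT and state no procedure for making the striatum mice hypothyroid. No library was taken from untreated mice with normal thyroid function, and none is labelled as coming from vehicle-injected mice. Whether the PTU mice received a vehicle injection is not stated in the sources used here. The hour of killing is not given for any group, so time after TH and time of day cannot be told apart in any contrast below.

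Corticosterone, the glucocorticoid of mice, enters cells and binds the receptor, which is held by a chaperone complex in the cytosol and then moves to the nucleus to act on its target genes. The enzyme encoded by Hsd11b1 regenerates active hormone from its inert 11-keto form inside fat and liver cells, so that the tissue level of hormone can differ from that in blood. Fkbp5, a co-chaperone that lowers the receptor's affinity for hormone, and Tsc22d3, also called GILZ, an anti-inflammatory leucine zipper protein, are standard readouts of receptor activity. Handling, injection, fasting, the time of day and inflammation all raise corticosterone in a mouse, and the same target genes then respond in many tissues at once. Thyroid hormone acts through its own nuclear receptors, and several genes, such as Klf9, are known targets of both hormones.

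Values below are normalised read counts, that is, counts corrected for effective library size and brought to the average effective size within a tissue. They can be compared between libraries of 1 tissue, but not between genes or between tissues unless given per kilobase. The total gene count of a library was 8044701 to 10147160 in striatum and 17285956 to 26946573 in WAT. A change is a log2 change ± SE from edgeR's quasi-likelihood test, adjusted with the Benjamini-Hochberg method over all genes tested in that tissue, and a gene was called when its adjusted p was below 0.05. Both contrasts with PTU in 1 tissue share the PTU libraries. Markers of the labelled tissue were present in every library, with a sum over 7 adipocyte genes of 247745 to 502332 in WAT, but single libraries stood apart. In striatum, Xist was at 22070 to 33693 in 6 libraries (PTU replicate 6, 12 h replicate 1 and all 4 at 24 h) and at 2.73 to 17.8 in the other 4, although all were labelled male. The 24 h replicate 2 of striatum had a sum over 10 striatal projection neuron genes of 2340, against 16880 to 46489 in the other 9 libraries, and the highest sum over 10 cortical neuron genes, 27487 against 5947 to 17230. In WAT, a sum over 8 skeletal muscle genes ran from 932 to 517554. In tissue RNA, fewer cells of a type and less RNA per cell cannot be told apart.

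Per kilobase of exon, Mt1 had the highest level of the 10 genes in both tissues, with group means of 279 to 315 CPM per kilobase in striatum and 114 to 481 in WAT (CPM, counts scaled to library size). The highest of these, at 24 h in WAT, rests on replicate 2 and was 93.1 without it. Metallothioneins bind zinc and copper and are abundant in many cell types. Hsd11b1 stood out between the tissues, at 31.3 to 80.8 CPM per kilobase in WAT and 1.87 to 3.60 in striatum. The receptor gene itself was at a like level in both, 11.2 to 14.7 in striatum and 11.2 to 15.7 in WAT. Zbtb16, a zinc finger transcription repressor, was the lowest in striatum, at 0.706 to 1.17, and in WAT it and Fkbp5 were the lowest, at 2.55 to 3.87 and 3.39 to 4.05. In striatum the Zbtb16 values rest on 19 to 111 reads a library, so counting error alone is large there. Mt1 and Mt2 are closely related copies that lie side by side on chromosome 8, and Mt2 shares exon sequence with the antisense gene Gm45774, so reads of these genes may be split or shared by the counting.

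Upstream sequences show which of the genes carry, close to a start site, the letters that the receptor or the metal-sensing factor MTF1 is known to recognise. RefSeq promoter windows (GRCm38.p6) were at hand for 8 of the 10 genes, 16 windows in all, since Sgk1 has 6, Tsc22d3 has 3 and Errfi1 has 2, and none for Nr3c1 or Zbtb16. The 250 bases before each start were searched on both strands for the full palindromic glucocorticoid response element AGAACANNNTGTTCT, for the hexamer AGAACA, which the full element holds on both strands, and for the core of the metal response element, TGCACNC or TGCGCNC. The full element was in 1 of the 16 windows, upstream of an alternative Sgk1 start, and in 3 of all 32851 windows of the genome, or 0.00913%. It is printed here with the element in capitals, as the single full match, and lies at bases -189 to -175 of the window chr10:21993640-21993889 on the plus strand.
Sgk1: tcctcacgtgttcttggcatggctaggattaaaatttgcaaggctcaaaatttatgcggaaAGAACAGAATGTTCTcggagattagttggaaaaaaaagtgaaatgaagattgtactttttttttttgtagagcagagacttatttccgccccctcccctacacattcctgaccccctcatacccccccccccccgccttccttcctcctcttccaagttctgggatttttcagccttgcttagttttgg
The metal core was in 21.4% of all windows. Among the 10 genes it was found once each for Mt1, Ddit4 and Hsd11b1 and 3 times for Mt2. The Mt1 window, chr8:94178839-94179088, and the Mt2 window, chr8:94172368-94172617, both on the plus strand, are shown because these genes had the widest range of all 10 in WAT, with the cores in capitals.
Mt1: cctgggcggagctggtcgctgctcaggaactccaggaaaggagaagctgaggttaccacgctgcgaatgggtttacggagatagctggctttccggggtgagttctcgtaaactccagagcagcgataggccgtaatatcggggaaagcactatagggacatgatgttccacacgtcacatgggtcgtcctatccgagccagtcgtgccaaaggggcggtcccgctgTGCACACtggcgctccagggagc
Mt2: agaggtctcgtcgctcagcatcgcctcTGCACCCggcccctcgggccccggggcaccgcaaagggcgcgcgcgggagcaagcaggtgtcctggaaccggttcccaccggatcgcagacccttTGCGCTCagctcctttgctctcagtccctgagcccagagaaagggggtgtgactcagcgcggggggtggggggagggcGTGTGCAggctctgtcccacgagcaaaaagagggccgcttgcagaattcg
The core lies at bases -23 to -17 before the Mt1 start, and at -223 to -217, -128 to -122 and -50 to -44 before the Mt2 start. With the 50 bases after each start included, the count rose to 3 for Mt1 and 4 for Mt2. The hexamer AGAACA was in 16.1% of all windows and in 3 Sgk1 windows and 1 Tsc22d3 window, and the hexamer of the thyroid hormone receptor, AGGTCA, was in 4607 of the 32851 windows and in 2 Sgk1 windows. No window of the 10 genes held 2 such hexamers in the spacing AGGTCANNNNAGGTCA, which 0.0152% of all windows held.

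The receptor gene Nr3c1 (ENSMUSG00000024431, GRCm38, chromosome 18, 39410545 to 39519421, minus strand) was higher in the WAT libraries taken 6 h after TH than in PTU or at 24 h. Its normalised counts were 1793, 2220, 1855 and 1750 in the PTU libraries, 2575, 2671, 2491 and 2659 at 6 h, and 1926, 1493, 1946 and 2005 at 24 h. Every 6 h library was above every library of the other 2 groups, and the 24 h libraries overlapped with PTU. The log2 change was 0.45 ± 0.11 at 6 h against PTU (1.36-fold, edgeR adjusted p = 0.0261). It was -0.05 ± 0.11 at 24 h against PTU (adjusted p = 0.788). From 6 h to 24 h it was -0.50 ± 0.11 (adjusted p = 0.0175). The receptor was the only one of the 10 genes called at 6 h, where 4.18% of all 17928 genes tested were called higher and 3.05% lower, and the only one called from 6 h to 24 h, where 3.07% were called higher and 4.35% lower. The 6 h rise was just past the threshold: it was not called without 6 h replicate 2 (adjusted p = 0.0616), replicate 3 (0.0531) or replicate 4 (0.0598), although its size stayed between 0.43 and 0.53. The fall from 6 h to 24 h was called with any 1 library left out. With the skeletal muscle list as a covariate it was -0.38 ± 0.11 (adjusted p = 0.112). The 6 h libraries had muscle sums of 932 to 95982, against 2190 to 517554 in PTU and 38558 to 285440 at 24 h, and the part of muscle RNA in this difference was not tested beyond that fit.

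In striatum, Nr3c1 was at 760 and 859 in the PTU libraries, at 1003, 939, 913 and 788 at 12 h, and at 1044, 1075, 1113 and 1028 at 24 h. The 24 h libraries lay above all others, and the 12 h libraries overlapped with PTU. The change at 24 h was 0.40 ± 0.11 (1.32-fold, edgeR adjusted p = 0.223) and was not called. All 4 libraries at 24 h were among those with high Xist, as was 1 library in each of the other groups, at 859 and 1003. The part of this division in the difference was not tested in these few libraries, and with the level of Y-linked genes as a covariate the change was 0.31 ± 0.11.

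Hsd11b1 (ENSMUSG00000016194, chromosome 1, 193221634 to 193264075, minus strand) fell in WAT. Its normalised counts were 13117, 5563, 4479 and 6356 in the PTU libraries, 4558, 4560, 4826 and 5520 at 6 h, and 2654, 2746, 3090 and 2923 at 24 h. Every 24 h library was below every library of the other 2 groups, while PTU replicate 1 was at 2.36 times the median of the other 3 PTU libraries. The log2 change at 24 h was -1.37 ± 0.26 (edgeR adjusted p = 0.00424), a level of 0.387 times that of PTU. It was the only 1 of the 10 genes called at 24 h, where 7.45% of all genes were called higher and 9.62% lower. Without PTU replicate 1 the change was -0.94 ± 0.13 (adjusted p = 0.00047), and it was called with any 1 library left out, with values from -1.55 to -0.94. At 6 h the change was -0.60 ± 0.26 (adjusted p = 0.173), and -0.16 ± 0.13 without PTU replicate 1. From 6 h to 24 h it was -0.77 ± 0.26 (adjusted p = 0.0923), and -0.79 ± 0.12 (adjusted p = 0.00245) without that PTU library, which enters this contrast only through the shared estimate of spread. The adipocyte marker sum also moved, from 391943 to 502332 in PTU over 328309 to 390950 at 6 h to 247745 to 344392 at 24 h, and its part in the fall of Hsd11b1 was not tested. Hsd11b1 lies over parts of Lamb3 and of an antisense gene on the opposite strand, without shared exons.

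In striatum Hsd11b1 was low and did not fall. It was at 95.4 and 54.4 in PTU, 96.3, 112, 77.0 and 73.7 at 12 h, and 91.9, 256, 83.3 and 144 at 24 h. The highest value was in 24 h replicate 2, the library low in striatal neuron genes, and the groups overlapped. The log2 change at 24 h was 0.94 ± 0.43 (adjusted p = 0.522) and 0.50 ± 0.30 without that library. The 24 h response differed between the tissues, with a difference, WAT minus striatum, of -2.31 ± 0.53 in a fit of all 22 libraries over 12767 genes (edgeR adjusted p = 0.0137). Hsd11b1 was again the only member called, where 1.72% of all genes were called with a higher and 3.42% with a lower response in WAT. The difference was -1.97 ± 0.65 (adjusted p = 0.145) without striatum PTU replicate 6, 1 of only 2 controls in that tissue, and -2.30 ± 0.62 (adjusted p = 0.0752) when only the 4 groups compared entered the fit.

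**Figure D1:**
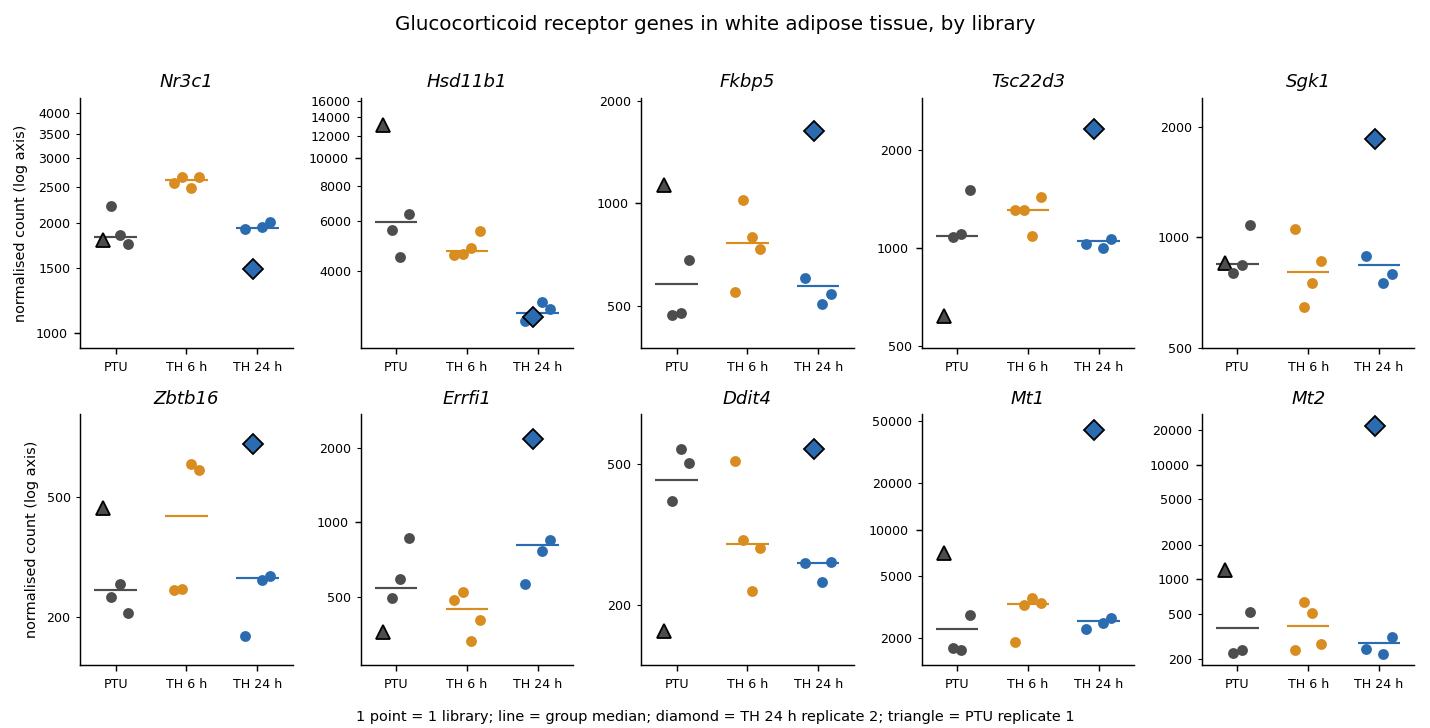
Normalised count (log axis) of each of the 10 genes in the 12 WAT libraries, by group (PTU, TH 6 h, TH 24 h); each point is 1 library, the line is the group median, the diamond is 24 h replicate 2 and the triangle PTU replicate 1. The diamond is the highest of 12 points for 8 genes and the lowest for Nr3c1, while the 24 h points of Hsd11b1 all lie below those of the other groups.

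None of the 8 induced genes was called in WAT at either time, and at 24 h 1 library held most of their spread. Fkbp5 was at 1130, 470, 477 and 684 in PTU, 551, 1025, 797 and 737 at 6 h, and 606, 1634, 508 and 542 at 24 h. The 2 highest values were in 24 h replicate 2 and PTU replicate 1, and the groups overlapped. The change of Fkbp5 was 0.17 ± 0.39 at 6 h and 0.25 ± 0.39 at 24 h (adjusted p = 0.810 and 0.685), and -0.32 ± 0.29 at 24 h without replicate 2.

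Tsc22d3 was at 617, 1079, 1104 and 1505 in PTU, 1305, 1307, 1086 and 1431 at 6 h, and 1031, 2311, 999 and 1069 at 24 h. Here 24 h replicate 2 was again the highest of all libraries, but PTU replicate 1 was the lowest, so the libraries that were both high for Fkbp5 lay at opposite ends. The change was 0.25 ± 0.29 at 6 h and 0.33 ± 0.29 at 24 h (adjusted p = 0.615 and 0.459), and -0.06 ± 0.23 at 24 h without replicate 2. Sgk1, a kinase that regulates ion transport and carries the full element upstream of 1 start, was at 854, 801, 841 and 1082 in PTU, 1055, 646, 749 and 860 at 6 h, and 891, 1860, 751 and 792 at 24 h. Its highest value was in 24 h replicate 2 and its lowest in 6 h replicate 2. Without 24 h replicate 2 its change at 24 h turned from 0.26 ± 0.26 to -0.14 ± 0.16.

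Zbtb16, which is among the strongest induced genes in many human cells given glucocorticoid, split the 6 h group. It was at 245, 248, 645 and 619 at 6 h, at 462, 232, 258 and 207 in PTU, and at 173, 756, 264 and 274 at 24 h. The high 6 h libraries were replicates 3 and 4, and the groups overlapped (0.60 ± 0.47 at 6 h, adjusted p = 0.446; 0.34 ± 0.47 at 24 h, adjusted p = 0.652).

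Errfi1, an inhibitor of the epidermal growth factor receptor, was at 363, 496, 590 and 866 in PTU, 489, 526, 333 and 402 at 6 h, and 562, 2174, 765 and 851 at 24 h. All 4 values at 24 h were above all 4 at 6 h, with a change between those times of 1.31 ± 0.38 (adjusted p = 0.0562). Without 24 h replicate 2 this was 0.71 ± 0.27 (adjusted p = 0.154), and against PTU the 24 h change went from 0.91 ± 0.38 (adjusted p = 0.117) to 0.33 ± 0.27. Ddit4, also called REDD1, a stress-induced inhibitor of the kinase mTORC1, was at 169, 394, 550 and 505 in PTU, 511, 305, 218 and 289 at 6 h, and 262, 553, 232 and 264 at 24 h. PTU replicate 1 was the lowest of all libraries for Ddit4 and 24 h replicate 2 the highest. The change at 24 h was -0.30 ± 0.38 (adjusted p = 0.613) with all libraries and -0.94 ± 0.26 (adjusted p = 0.0297) without both, a setting chosen after the values were seen.

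The metallothioneins had the widest range. Mt1 was at 7034, 1742, 1684 and 2811 in PTU, 1900, 3287, 3605 and 3392 at 6 h, and 2277, 43999, 2510 and 2690 at 24 h. Mt2 was at 1210, 225, 239 and 515 in PTU, 240, 637, 511 and 273 at 6 h, and 244, 22075, 223 and 313 at 24 h. In 24 h replicate 2 Mt1 was 17.5 times and Mt2 90.5 times the median of the other 3 libraries of its group, and in PTU replicate 1 they were 4.04 and 5.06 times the median of the other 3. The log2 change at 24 h was 1.96 ± 0.90 for Mt1 (adjusted p = 0.157) and 3.38 ± 1.36 for Mt2 (adjusted p = 0.107), neither called. Without 24 h replicate 2 both turned to the other sign, -0.41 ± 0.43 and -1.07 ± 0.55, and without both libraries they were 0.26 ± 0.25 and -0.33 ± 0.41.

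The groups of the WAT contrasts did not overlap for 1 of the 10 genes at 6 h (Nr3c1), for 1 at 24 h (Hsd11b1) and for 3 between 6 h and 24 h (Nr3c1, Hsd11b1 and Errfi1). Over all genes tested this held for 13.9%, 19.3% and 21.8%, so these counts are near the background. At an unadjusted p below 0.05 the numbers were 2, 3 and 5 of 10 in those contrasts, against 25.4%, 32.0% and 24.1% of all genes.

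**Figure D2:**
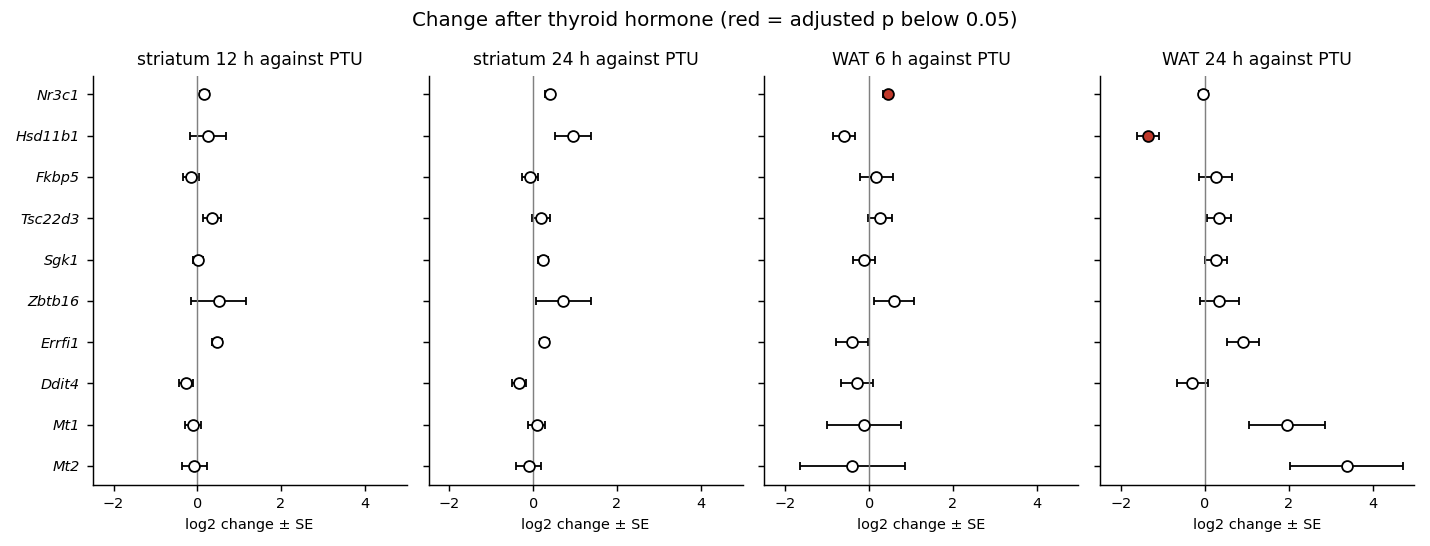
Log2 change ± SE of the 10 genes in the 4 contrasts with PTU (2 in striatum, 2 in WAT; the contrasts of 1 tissue share their PTU libraries), with red points where the edgeR adjusted p was below 0.05. Only Nr3c1 at 6 h (0.45) and Hsd11b1 at 24 h (-1.37), both in WAT, were called, and the error bars of Mt1 and Mt2 in WAT are the longest.

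The WAT library of 24 h replicate 2 was examined further because it had the highest value of all 12 libraries for 8 of the 10 genes, and the lowest for the receptor itself (1493 against 1750 to 2671 in the other 11). Its counts were 2.11 to 3.01 times the median of the other 3 libraries at 24 h for Fkbp5, Tsc22d3, Sgk1, Zbtb16, Errfi1 and Ddit4. Hsd11b1 did not follow, at 0.940 times that median. Of 28 other known glucocorticoid targets, 10 were highest of the 12 libraries in this one and 3 lowest. The share of all genes at their highest was not counted for this or any other library. Such counts, here and below, therefore describe single libraries and do not set these genes apart from the rest. Cebpd, a transcription factor of the acute response, was at 855 against 214 to 294, and Map3k6 was at 1432 against 400 to 466 in the other 24 h libraries. Lcn2, the iron-binding lipocalin 2, was at 537 against 26.6 to 43.5, and Pik3r1, a regulatory subunit of PI3-kinase, was at 1725 against 2586 to 4600.

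Of the other stress-related lists, acute phase and immediate early genes were mostly at their highest in the same library. Heat shock genes were highest there in 1 of 5, integrated stress response genes in 2 of 6 and hypoxia genes in 0 of 5, with 1 at its lowest. Of 5 acute phase genes tested, 4 were highest there. Saa3 was at 568 against 14.5, 118 and 34.3 in the other 24 h libraries, and Hp, haptoglobin, at 36534 against 7412 to 15509. Saa1 and Saa2, nearly silent in most WAT libraries, were at 196 and 410, against at most 2.12 and 7.43 in the other 24 h libraries. The cytokine gene Il6 was at 61.1 against 1.93 to 4.43. Of 9 immediate early genes, 6 were highest there, with Junb at 845 against 258 to 312. No metal response gene was highest of the 12 libraries in this one. Slc30a1, a zinc exporter, was at 221 against 173 to 246 in the other 24 h libraries. Mtf1 and Slc39a10 were above those libraries, at 321 against 281 to 297 and at 371 against 304 to 327. The sums over 7 leukocyte and 7 adipocyte genes in this library were within the range of the other WAT libraries. Its muscle sum, 285440, was the highest of the 24 h group, with sums of up to 517554 in PTU. All 5 erythrocyte genes were lowest of the 12 libraries there. The part of an acute phase response in the values of the 10 genes was not tested.

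PTU replicate 1 shared only some of this. It was the highest of the 12 libraries for Hsd11b1 alone and lowest for Tsc22d3 and Ddit4. Its Fkbp5, Zbtb16, Mt1 and Mt2 were the highest of the 4 PTU libraries. Lcn2 was at 268 there, against at most 22.7 in the other PTU libraries, while Saa1, Saa2 and Saa3 were not raised, at 0.961, 0 and 7.69. The immediate early gene Fos was at 90.3 against 348 to 614 in the other PTU libraries, and Angptl4, a lipase inhibitor induced by fasting, at 763 against 2509 to 5105. Lpin1, a lipid phosphatase, was at 11572 against 5511 to 6908, so several known targets of the receptor went in opposite directions within this 1 library.

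**Figure D3:**
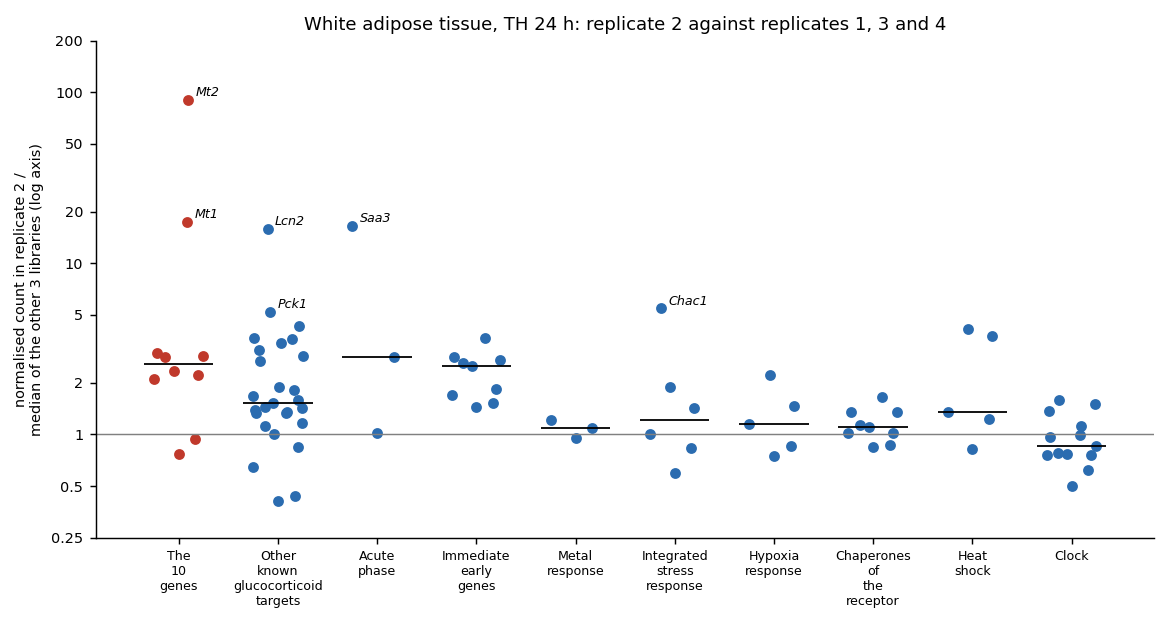
Normalised count in WAT 24 h replicate 2 divided by the median of the other 3 libraries at 24 h (log axis), for the 10 genes (red) and 9 other lists (blue); each point is 1 gene, the line is the list's median, and 3 genes with a median under 10 in the other libraries are left out. Mt2 (90.5) and Mt1 (17.5) lie far above the other points of their list, while the 3 metal response genes lie near 1.

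**Figure D4:**
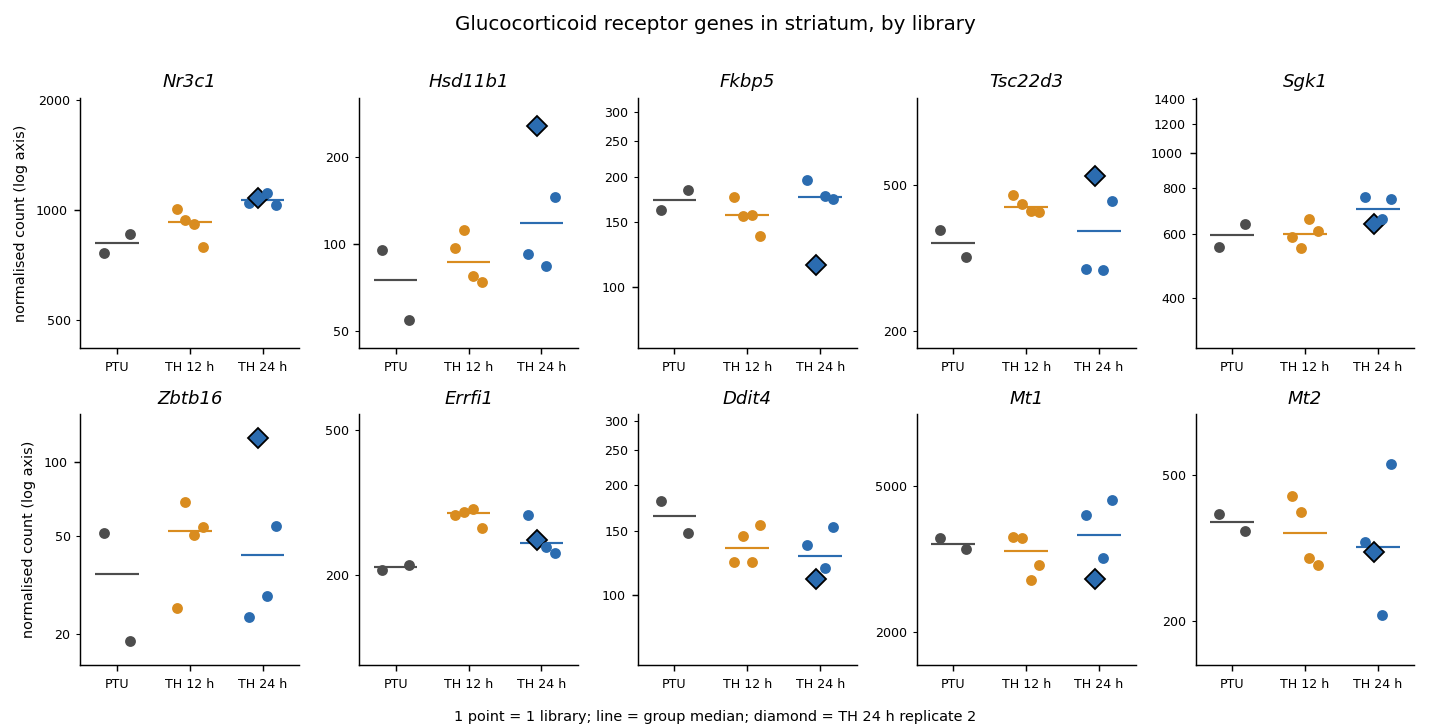
Normalised count (log axis) of the 10 genes in the 10 striatum libraries, by group (PTU, TH 12 h, TH 24 h); each point is 1 library, the line is the group median and the diamond is 24 h replicate 2, which is low in striatal neuron genes. Errfi1 at 12 h and Nr3c1 at 24 h lie above both PTU points, and the diamond is the highest point for Hsd11b1, Tsc22d3 and Zbtb16 and the lowest for Fkbp5 and Ddit4.

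In striatum no member was called at 12 h, where 0.733% of all 15827 genes were called higher and 0.227% lower, or at 24 h, where 0.316% were called higher and 0.0316% lower. From 12 h to 24 h 0.0% of genes were called by edgeR, with 2309 at an unadjusted p below 0.05. At that unadjusted level 1, 2 and 3 of the 10 genes passed in the 3 contrasts, against 20.2%, 9.63% and 14.6% of all genes. DESeq2 called 1, 0 and 0 of the 10, against 7.08%, 1.28% and 2.1% of all genes with an adjusted p. The highest library was at 1.38 times the lowest for Sgk1, 1.47 times for Errfi1 and 1.71 times for Fkbp5, against 2.88, 6.53 and 3.47 times in WAT. Zbtb16 went the other way, with 6.62 times in striatum and 4.38 times in WAT, and Hsd11b1 had 4.70 and 4.94 times.

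Errfi1 came nearest to a call. It was at 206 and 214 in PTU, 293, 298, 303 and 269 at 12 h, and 291, 250, 239 and 230 at 24 h. All TH libraries were above both PTU libraries. The 12 h libraries also all had lower sums of striatal projection neuron genes than PTU (16880 to 28314 against 31797 and 46489) and higher sums of cortical neuron genes (11698 to 17230 against 5947 and 9563), and the part of this in the values of Errfi1 and the other genes was not tested. The change was 0.47 ± 0.11 at 12 h (1.38-fold, edgeR adjusted p = 0.0713). At 24 h it was 0.27 ± 0.11 (adjusted p = 0.482). It was called at 12 h with DESeq2 (adjusted p = 0.0302), with the 24 h group left out (0.0250) or without 24 h replicate 2 (0.0388), and not in the other settings tried. In those settings 7.08%, 9.05% and 7.93% of all genes were called, against 0.96% in the main fit, so the rise in calls was not particular to Errfi1.

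Fkbp5 was at 162 and 184 in PTU, 176, 157, 157 and 137 at 12 h, and 196, 114, 177 and 174 at 24 h. Tsc22d3 was at 376 and 318, then 471, 445, 426 and 423, then 294, 529, 294 and 453. All 4 Tsc22d3 values at 12 h were above PTU, those at 24 h fell on both sides of it, and neither gene was called (Fkbp5 -0.15 ± 0.19 and -0.07 ± 0.19, Tsc22d3 0.35 ± 0.22 and 0.18 ± 0.22 at 12 h and 24 h, the lowest adjusted p being 0.403). Sgk1 was at 551 and 637 in PTU, 590, 548, 659 and 613 at 12 h, and 755, 639, 658 and 746 at 24 h, with log2 changes of 0.02 ± 0.11 and 0.24 ± 0.11 (adjusted p = 0.941 and 0.537).

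Ddit4 was at 181 and 148 in PTU, 124, 145, 123 and 156 at 12 h, and 137, 111, 119 and 153 at 24 h, overlapping between groups (-0.27 ± 0.16 and -0.34 ± 0.16, adjusted p = 0.380 and 0.546). Mt1 was at 3605 and 3374 in PTU, 3643, 3604, 2782 and 3056 at 12 h, and 4182, 2796, 3176 and 4595 at 24 h. Mt2 was at 393 and 351, then 439, 396, 297 and 285, then 328, 309, 207 and 537. All groups overlapped for both genes, with log2 changes against PTU of -0.09 ± 0.19 and 0.08 ± 0.19 for Mt1 and -0.07 ± 0.30 and -0.10 ± 0.30 for Mt2 at 12 h and 24 h (lowest adjusted p = 0.823). The highest striatal library was at 1.65 times the lowest for Mt1 and 2.59 times for Mt2, against 26.1 and 99.0 times in WAT. Zbtb16 was at 51.4 and 18.8 in PTU, 25.5, 68.5, 50.8 and 54.6 at 12 h, and 23.5, 124, 28.6 and 55.2 at 24 h. Its log2 changes were 0.51 ± 0.66 and 0.72 ± 0.66 (adjusted p = 0.703 and 0.767), the latter 0.03 without 24 h replicate 2. Its highest value and the lowest of Fkbp5 were both in 24 h replicate 2, the library high in cortical neuron genes. Across the 10 libraries Fkbp5 and Zbtb16 had a Pearson r of -0.87 on the log2 scale, over libraries that differ in their share of striatal neuron RNA. The pair is named because its r was the largest in size among all pairs of the 10 genes in striatum. In WAT the same pair had an r of 0.66 over 12 libraries.

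The groups did not overlap for 2 members at 12 h (Tsc22d3 and Errfi1), for 3 at 24 h (Nr3c1, Sgk1 and Errfi1) and for 1 between the times (Nr3c1), all higher in the later or treated group. Over all genes this held for 36.4%, 18.2% and 8.3%. The counts of members are read against those shares, and rest on 1 to 3 genes.

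Genes that supply or hold the receptor moved in WAT, with the lists chosen by role. Hsd11b2, which inactivates corticosterone, was at 19.2 to 46.7 in PTU, 4.47 to 7.50 at 6 h and 1.94 to 8.49 at 24 h, with log2 changes of -2.31 ± 0.37 at the earlier time (edgeR adjusted p = 0.00269) and -2.52 ± 0.38 at the later one (adjusted p = 0.000938). It was the only 1 of 4 genes of ligand supply and related receptors called at either time. Of 9 chaperones of the receptor none was called at 6 h (smallest p, Bag1, -0.34 ± 0.11, adjusted p = 0.0952). At 24 h 6 were called higher and 1 lower, with a median log2 change of 0.73, against -0.0020 over all genes. Fkbp4, the co-chaperone that opposes Fkbp5 on the receptor, was at 977 to 1246 in PTU, 1063 to 1729 at 6 h and 1906 to 2753 at 24 h, and changed by 1.04 ± 0.16 at 24 h (adjusted p = 0.000998). Hspa8, a constitutive heat shock protein, changed by 0.88 ± 0.25, and Bag1, its cofactor, by -0.42 ± 0.11. In 24 h replicate 3, 7 of the 9 chaperones were at their highest of the 12 libraries, and Hsp90aa1 was at 6158, 10267, 12398 and 5999 in the 24 h group. The number called was 5 without that library, 4 without PTU replicate 2, and 4 without PTU replicate 1 and 24 h replicate 2, in place of 7. The shares of all genes called in those settings were 12%, 10.9% and 20.1%, against 17.1% in the main fit.

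Of 5 heat shock genes 3 were called higher at 24 h (Hsph1 1.72 ± 0.28, Hspb1 0.99 ± 0.21 and Dnaja1 0.64 ± 0.17). The median over the list was 1.72, and none was called at 6 h. Of all genes, 7.45% were called higher at 24 h. For 4 of the 5 heat shock genes the highest of the 12 libraries was 24 h replicate 3, with Hspa1a at 110, 453, 960 and 107 in the 24 h group. Of the 5, 3 were still called without that library, where 12% of all genes were called. In striatum none of 9 chaperones and none of 3 heat shock genes tested was called at either time. There the smallest p was that of Fkbp4 at 12 h (0.47 ± 0.13, adjusted p = 0.0977).

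Of 28 other known glucocorticoid targets, 6 were called higher and 1 lower in WAT at 6 h. The largest rises were those of Klf9, a zinc finger factor, with 1.94 ± 0.17 (adjusted p = 4.09e-05), and Per1, a clock gene, with 1.38 ± 0.35 (adjusted p = 0.0338), and the fall was that of Nfil3, -2.39 ± 0.22 (adjusted p = 4.87e-05). At 24 h 6 were called higher and 2 lower, led by Pdk4, a kinase that limits pyruvate oxidation, with 2.77 ± 0.65, and Bcl6, a repressor, with 1.89 ± 0.37, while Rasd1 changed by -2.84 ± 0.35 and Sult1a1 by -1.06 ± 0.21. Pdk4 at 24 h was at 2627, 17060, 18163 and 3946, so replicates 2 and 3 were far above the others. The median over the list was 0.26 at 6 h and 0.16 at 24 h, against -0.03 and -0.0020 over all genes. Without PTU replicate 1 and 24 h replicate 2 the numbers called were 8 at 6 h and 13 at 24 h, where 11.5% and 20.1% of all genes were called in that setting. With 1 library left out the number at 6 h fell from 7 to 3 without PTU replicate 2 or 6 h replicate 3, and to 4 without PTU replicate 3, 6 h replicate 2 or 6 h replicate 4. Of all genes, 7.23% were called at 6 h in the main fit. In those settings, in the order given, the shares were 3.81%, 3.82%, 8.9%, 4.88% and 4.12%.

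Several of these targets are also clock genes or clock-controlled. Of 13 clock genes 7 were called higher and 3 lower in WAT at 6 h, against 4.18% and 3.05% of all genes. Dbp rose most, with 4.68 ± 0.42, followed by Ciart with 3.48 ± 0.43, and Npas2 fell most, with -3.99 ± 0.33, before Arntl with -2.40 ± 0.23. At 24 h 1 clock gene was called higher (Cry1, 0.84 ± 0.21) and 3 lower, Nr1d1 with -1.67 ± 0.19 and Nr1d2 with -1.30 ± 0.25 among them. Of all genes, 7.45% were called higher and 9.62% lower at that time. Dbp at 6 h was at 2285 to 3416 in every library, against 52.3 to 241 in PTU and 122 to 199 at 24 h. The hour of the day at which each group was killed is not given in the sources used here, so time after TH and time of day cannot be told apart in these rows.

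The remaining lists were smaller. Their calls in WAT are to be read against all genes, of which 4.18% were called higher and 3.05% lower at 6 h. At 24 h these shares were 7.45% and 9.62%. Of 10 coregulators 3 were called higher in WAT at 6 h (Ncoa3 0.50 ± 0.13 and Ep300 0.41 ± 0.10 the largest), and Ncoa3 rose and Ncoa1 fell at 24 h (0.42 ± 0.13 and -0.37 ± 0.09). Among paralogs of the 10 genes, Tsc22d1 fell at both times (-0.48 ± 0.13 and -0.66 ± 0.13), as did Sgk3 at 24 h (-0.49 ± 0.13). Mtf1 was called higher at 6 h (0.46 ± 0.09) and no metal response gene at 24 h (Mtf1 0.25 ± 0.09, adjusted p = 0.0904). Of the integrated stress response genes, Asns fell at both times (-0.65 ± 0.14 and -0.86 ± 0.14) and Ddit3 rose at 24 h (0.79 ± 0.21). In the hypoxia list Vegfa rose at both times (0.83 ± 0.16 and 0.97 ± 0.16), and Egln3 fell at both (-1.34 ± 0.35 each). No immediate early gene was called in WAT at either time by edgeR (smallest p, Jun at 6 h, -0.44 ± 0.28, and Fosb at 24 h, 1.65 ± 0.90). Of the acute phase genes Orm1 fell at 6 h (-0.53 ± 0.11), and Saa1 and Saa3 were called higher at 24 h (7.03 ± 2.25 and 4.02 ± 1.27, adjusted p = 0.0496 and 0.0464). Without 24 h replicate 2, any 1 PTU library, or 6 h replicate 2 or 4, no acute phase gene was called at 24 h.

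In striatum the lists gave few calls. Klf9 rose at both times, from 1932 and 2012 in PTU to 2681 to 2893 at 12 h and 3304 to 3984 at 24 h (0.51 ± 0.10 and 0.88 ± 0.10, adjusted p = 0.0420 and 0.00982). At 12 h Nfil3 (1.29 ± 0.26) and Jun (1.06 ± 0.19) were among the list genes also called higher, and Sgk3 was called lower (-0.84 ± 0.12). Nfil3 was thus called higher in striatum at 12 h and lower in WAT at 6 h, at different times after TH. No clock gene was called in striatum (smallest p, Per2 at 12 h, -0.68 ± 0.15, adjusted p = 0.0656), and at 24 h Klf9 was the single call in all lists. The calls of the glucocorticoid target list at 12 h, 2 in number, became 4 without 24 h replicate 2. In that setting 7.93% of all genes were called, against 0.96% in the main fit. Other settings lowered the share at 12 h, to 0.0885% without 12 h replicate 2 and 0.038% without 12 h replicate 3. At 24 h the share was 0.348% in the main fit, 0.0569% without 24 h replicate 4 and 0.019% with the Y-linked covariate. Calls of single list genes in these settings are not given here. The list calls at 12 h and that of Klf9 at 24 h rest on both PTU libraries. With either left out a single control remains, and calls from such a fit cannot show how stable a gene is.

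The genes whose log2 level followed Fkbp5 most closely over the 12 WAT libraries were Mt1 (Pearson r 0.89), Mt2 (0.89) and Hmox1 (0.88), the haem oxygenase gene, and the 2 highest libraries of Fkbp5 were 24 h replicate 2 and PTU replicate 1. Without these libraries r of Fkbp5 was 0.83 with Mt1 and 0.85 with Mt2 over 10 libraries. Nr3c1 was followed in WAT by Rgs7bp (0.95), Ap5m1 (0.95) and Marveld1 (0.93). In striatum Fkbp5 was followed by St18, Pard6b and Fndc9 (0.96 each), and Nr3c1 by Camkk2 (0.95), Kcnk1 (0.93) and Cacng3 (0.93), over 10 libraries that share tissue composition as a source of spread. Each was picked from 15827 or 17928 genes for its r, which is a description.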

How the data were processed

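The deposited files were 2 tables of read counts per gene, 1 for each tissue. Per the study's methods, the authors extracted RNA with Trizol (WAT) or RNeasy columns (striatum), made libraries with the Lexogen SENSE total RNA kit, aligned reads to GRCm38 with Bowtie, removed alignments of low quality and counted reads with htseq-count. The annotation release and strand setting are not given in the sources used here. The WAT table holds pairs of rows with near-identical counts (235 pairs, tolerance 2%), and rows whose names had turned into dates (14 in striatum, 15 in WAT, at most 0.201% of counts) were left out. The total count per library is given in the report, and mitochondrial genes took 14.0 to 20.3% of it. The 10 genes and all lists were chosen with earlier results of these data known. 

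The test was the quasi-likelihood F test of edgeR 4.0.16 under R 4.3.3, with TMM factors, the 3 groups of a tissue in 1 fit, genes with a mean normalised count above 10 (15827 in striatum, 17928 in WAT), Benjamini-Hochberg adjustment over all genes, and SE taken as the log2 change over the root of F. The tissue difference was an interaction term in 1 fit of all 22 libraries, with genes matched by symbol. Alternatives were median-of-ratios (RLE) factors, DESeq2 1.42.0, no filter, the compared groups alone, a replicate block, covariates for Y-linked or muscle genes, WAT without copied and mitochondrial rows, and each library left out in turn. Leaving out WAT PTU replicate 1 and 24 h replicate 2 together was added after the data were seen. All 10 genes are named. From each list, up to 2 called genes with the largest rise and 2 with the largest fall are named for each contrast with PTU, or the gene with the smallest p, except 1 list gene that is not reported here, and other names (in single libraries that stand apart, and further calls of a list) were chosen after their values were seen. In counts simulated from the real means, edgeR recovered 68% of striatum genes and 61% of WAT genes changed by 1 on the log2 scale, and 100% and 94% of those changed by 2, in the 24 h contrast with PTU. The simulation gave each gene the spread typical of its mean level and held no library that stands apart. Those shares therefore do not apply to genes as variable as Mt1 and Mt2 in WAT. Nothing in the labels says more than a replicate number about separate mice, so p-values measure the spread between these libraries.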

Additional observations from a re-analysis of the deposited data

Results flagged for a closer look

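In the WAT 24 h group, replicate 2 lay beyond Dixon's 95% limit for a group of 4 for 7 of the 10 genes. It was the lowest for Nr3c1, at 1493 against 1926 to 2005 in the other 3 libraries. It was the highest for Fkbp5 at 1634 (508 to 606), Tsc22d3 at 2311 (999 to 1069), Sgk1 at 1860 (751 to 891), Ddit4 at 553 (232 to 264), Mt1 at 43999 (2277 to 2690) and Mt2 at 22075 (223 to 313). Of 50 gene and group combinations of 4 libraries examined, these 7 were beyond the limit, all in this library. The 10 genes were chosen with earlier results of these data known. The share of all genes beyond the limit was not counted, so no rate by chance can be set beside this count. Genes of 1 library are not independent of each other.

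Hsd11b1 had a response at 24 h that differed between the tissues by a test of the difference itself, WAT minus striatum, of -2.31 ± 0.53 on the log2 scale (edgeR adjusted p = 0.0137). It was -1.37 in WAT and 0.94 in striatum, the latter on 2 PTU libraries and low counts.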

How the results depend on the processing

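The fall of Hsd11b1 in WAT at 24 h was called under all 20 alternatives, with log2 changes from -1.55 to -0.92. In striatum at 24 h, against PTU or 12 h, 0 members were called under each alternative. With DESeq2, the setting with the largest share there, 1.28% and 2.1% of all genes were called. In the other contrasts the number called depended on the processing, and the cause was not tested. In the replicate block of striatum, PTU replicate 6 is alone with its number, so the contrasts with PTU rest there on PTU replicate 3. In striatum at 12 h it was 0 and became 1 (Errfi1) with DESeq2 or the compared groups alone, and 0 to 1 with 1 library left out (1 without 24 h replicate 2). Of all genes, 0.96% were called in the main fit, 7.08% with DESeq2, 9.05% with the compared groups alone and 7.93% without 24 h replicate 2. In WAT at 6 h it was 1 and became 0 with the replicate block (Nr3c1 0.45, edgeR adjusted p = 0.0698), and 0 to 1 with 1 library left out (0 without 6 h replicate 2, 3 or 4). The share of all genes called was 7.23% in the main fit, 4.94% with the block, and 4.88%, 3.82% and 4.12% without those replicates. In WAT at 24 h it was 1 and became 2 without PTU replicate 1 and 24 h replicate 2, where Ddit4 was added. All genes were called there at a share of 17.1% in the main fit and 20.1% without both libraries. From 6 h to 24 h it was 1 and became 3 with DESeq2, 2 with no filter, 2 with the compared groups alone, 2 without both libraries, 0 with the replicate block (Nr3c1, adjusted p = 0.0544), 0 with the muscle covariate, and 1 to 3 with 1 library left out (3 without PTU replicate 1, 2 without PTU replicate 4 or 24 h replicate 1). Of all genes, 7.41% were called in the main fit of this contrast. In the order of those settings the shares were 12.2%, 2.9%, 13.6%, 8.36%, 4.34% and 2.56%. They were 11.4% without PTU replicate 1, 9.42% without PTU replicate 4 and 4.26% without 24 h replicate 1. For the tissue difference it was 1, where 5.14% of all genes were called, and became 0 with the 4 groups alone, where 1.99% were. With 1 library left out it stayed 1 wherever both striatum PTU libraries were kept. With the replicate block, which leaves a single striatum control in the contrast, the difference of Hsd11b1 was -1.33 in place of -2.31. The replicate numbers gave no sign of pairing: deviations of same-numbered libraries correlated with r from -0.395 to 0.267 over 6 pairs in striatum and from -0.472 to 0.394 over 12 pairs in WAT.

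Log2 changes that turned sign belonged to members not called in that contrast. With the replicate block they were in striatum at 12 h Hsd11b1 -0.53, Fkbp5 0.0067 and Zbtb16 -0.37, in striatum at 24 h Fkbp5 0.069, Tsc22d3 -0.18, Zbtb16 -0.31 and Mt1 -0.20, in WAT from 6 h to 24 h Fkbp5 -0.039, in the tissue difference Sgk1 -0.15 and Zbtb16 0.53. The striatum values of this block, and its tissue differences, rest on PTU replicate 3 as the single striatum control. With the covariate for Y-linked genes they were in striatum from 12 h to 24 h Fkbp5 -0.052 and Ddit4 0.098, in the tissue difference Ddit4 -0.070. With the muscle covariate they were in WAT at 6 h Sgk1 0.025, Mt1 0.60 and Mt2 0.60, in WAT at 24 h Nr3c1 0.010, in WAT from 6 h to 24 h Fkbp5 -0.36 and Ddit4 0.062, in the tissue difference Sgk1 -0.091. Without WAT PTU replicate 1 and 24 h replicate 2 they were in WAT at 6 h Mt1 0.56 and Mt2 0.36, in WAT at 24 h Nr3c1 0.014, Tsc22d3 -0.25, Sgk1 -0.16 and Mt2 -0.33, in WAT from 6 h to 24 h Fkbp5 -0.51, Tsc22d3 -0.33, Sgk1 -0.037, Mt1 -0.30 and Mt2 -0.69, in the tissue difference Tsc22d3 -0.43, Sgk1 -0.39, Errfi1 -0.10, Ddit4 -0.59 and Mt2 -0.22. With 1 library left out in turn, the values of members that turned sign are given by their lowest and highest. In striatum at 12 h these were Sgk1 from -0.089 to 0.13, Mt2 from -0.19 to 0.013, Hsd11b1 from -0.091 to 0.71 and Zbtb16 from -0.044 to 1.39. In striatum at 24 h these were Fkbp5 from -0.17 to 0.055, Tsc22d3 from -0.012 to 0.30, Mt2 from -0.40 to 0.075 and Mt1 from -0.044 to 0.18. In striatum from 12 h to 24 h these were Zbtb16 from -0.48 to 0.48, Mt2 from -0.33 to 0.15 and Fkbp5 from -0.013 to 0.21. In WAT at 6 h these were Mt1 from -0.34 to 0.56, Mt2 from -0.68 to 0.36 and Sgk1 from -0.23 to 0.012. In WAT at 24 h these were Nr3c1 from -0.091 to 0.045, Fkbp5 from -0.32 to 0.59, Tsc22d3 from -0.058 to 0.54, Sgk1 from -0.14 to 0.40, Zbtb16 from -0.29 to 0.66, Mt1 from -0.41 to 2.62 and Mt2 from -1.07 to 4.12. In WAT from 6 h to 24 h these were Fkbp5 from -0.51 to 0.24, Ddit4 from -0.40 to 0.24, Tsc22d3 from -0.33 to 0.19, Sgk1 from -0.037 to 0.50, Mt1 from -0.30 to 2.43 and Mt2 from -0.69 to 4.18. In the tissue difference these were Ddit4 from -0.33 to 0.28, Sgk1 from -0.37 to 0.18, Zbtb16 from -1.25 to 0.31, Tsc22d3 from -0.23 to 0.38, Fkbp5 from -0.25 to 0.68, Mt1 from -0.49 to 2.57 and Mt2 from -0.97 to 4.25. DESeq2 gave no adjusted p for Mt1 or Mt2 in WAT. Depth limits Zbtb16 and Hsd11b1 in striatum most, with as few as 19 and 55 reads a library.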
